A study of Arabidopsis thaliana with 18 samples.

Results

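The comparison covers 6 of the 18 RNA-seq libraries of a study of the male gametophyte of Arabidopsis thaliana: 3 libraries of sperm cell nuclei (V-Mt SC) and 3 of vegetative cell nuclei (V-Mt VC), both from mature pollen of the line labelled V-Mt. The libraries were taken by their labels, and no measured value was used to choose them. V-Mt plants are Col-0 and carry pLat52:REF6-GFP, which places the histone demethylase REF6 fused to GFP under a promoter of the vegetative cell, and a sperm histone fused to RFP under the HTR10 promoter. The labels write that histone as HTR10 for the first V-Mt pollen library and count it up to HTR15 for the last, and whether this is a numbering slip was not tested. Nuclei were released from mature pollen of plants grown in a greenhouse under long days and sorted by flow cytometry, with GFP-positive nuclei taken as VC and RFP-positive nuclei as SC, both within a uniform side scatter. The same 2 nuclei types from a WT line (Col-0 with pACTIN11:H2B-GFP and pHTR10:HTR10-RFP), 3 libraries each, served as the reference in which no REF6 transgene is present, so all 4 groups carry a GFP and an RFP transgene but the GFP marker differs between the lines. Whether the V-Mt line goes back to a single transformation event, and whether replicates came from separate plants, is not given in the sources used here, so the p-values cover no more than the spread among these libraries, and that spread may be technical. The question is which differences between the cell types remain, vanish or turn round in a line whose vegetative cell makes REF6.

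Pollen grains hold a large vegetative cell, which builds the pollen tube, and the sperm cells that it carries to the ovule. Sperm identity is set by the Myb factor DUO1 and its targets, whereas the vegetative cell makes the receptors, wall enzymes, ion channels and actin machinery of the tube. Polycomb complexes place methyl groups on lysine 27 of histone H3 to keep genes silent, and REF6 is a Jumonji-type enzyme that removes them.

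Values are FPKM, that is fragments scaled to gene model length and to library size as the authors deposited them, and differences are log2(FPKM + 1) of SC minus VC, so a positive value means higher in SC. A gene was tested with limma where at least 3 of the 12 pollen libraries held 1 FPKM or more, with Benjamini-Hochberg adjusted p below 0.05 as the threshold. "Higher", "lower", "rose" and "fell" below refer to SC relative to VC unless other groups are named. In bulk nuclei, fewer nuclei of a type and less RNA per nucleus cannot be told apart.

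The libraries of the line were of unequal breadth. Between 18735 and 18932 genes reached 1 FPKM in V-Mt VC and 9429 to 11214 did so in V-Mt SC, beside 8093 to 8386 in WT VC and 11951 to 12742 in WT SC. Depth was estimated, in units of 1e6 fragments, at 9.64 to 14.7 for V-Mt VC, 9.11 to 14.1 for V-Mt SC, 16.3 to 22.5 in WT VC and 9.48 to 14.9 in WT SC. Ranked across genes, libraries correlated at 0.968 to 0.972 within V-Mt VC, 0.748 to 0.834 within V-Mt SC and 0.329 to 0.388 between V-Mt SC and V-Mt VC. V-Mt SC replicates 1 and 2 correlated more closely with WT SC replicate 3 (0.86 and 0.839) than with V-Mt SC replicate 3 (0.753 and 0.748). The organelle share of all FPKM was 0.00118%, 0.000982% and 0.0161% in V-Mt SC and 0.0432%, 0.0731% and 0.000737% in WT SC. V-Mt SC replicate 3 thus stands apart from its group, and so does WT SC replicate 3 by its organelle share. Whether libraries of these groups were exchanged could not be settled from the data. V-Mt VC correlated with WT VC at only 0.342 to 0.39, against 0.68 to 0.86 between V-Mt SC and WT SC.

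The labels were checked against markers. REF6 (AT3G48430, chromosome 3, 17935256 to 17940792 on the plus strand, TAIR10.1 annotation) stood at 1303, 2248 and 3001 FPKM in V-Mt VC and at 28.9, 58.4 and 436 in V-Mt SC, with 1.1, 0.42 and 0.48 in WT VC and 24.6, 23.2 and 10.8 in WT SC. The 3 V-Mt VC libraries lie above all others, and V-Mt SC replicate 3 holds far more than the other SC libraries; a gene-level value holds transgene and endogenous reads alike, and these cannot be told apart. The difference was -4.49 in V-Mt (SE 0.82, limma adjusted p = 0.000528) and 3.56 in WT (SE 0.82, limma adjusted p = 0.00519). Summed over 12 sperm markers, V-Mt SC held 36509 to 38458 FPKM and V-Mt VC 291.6 to 328.7, so the sperm label holds. The 15 vegetative markers did not separate the groups: they summed to 1866 to 2313 FPKM in V-Mt VC and to 2015, 1766 and 5338 in V-Mt SC, against 8717 to 12908 in WT VC and 8901, 9259 and 3634 in WT SC. None of the 15 was at 0 in any pollen library. The sum did not separate the WT groups either, since WT SC replicates 1 and 2 lie above the lowest WT VC library. It therefore cannot decide whether the libraries labelled V-Mt VC are vegetative-enriched relative to V-Mt SC. VC below means the GFP-positive nuclei of that label.

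**Figure D1:**
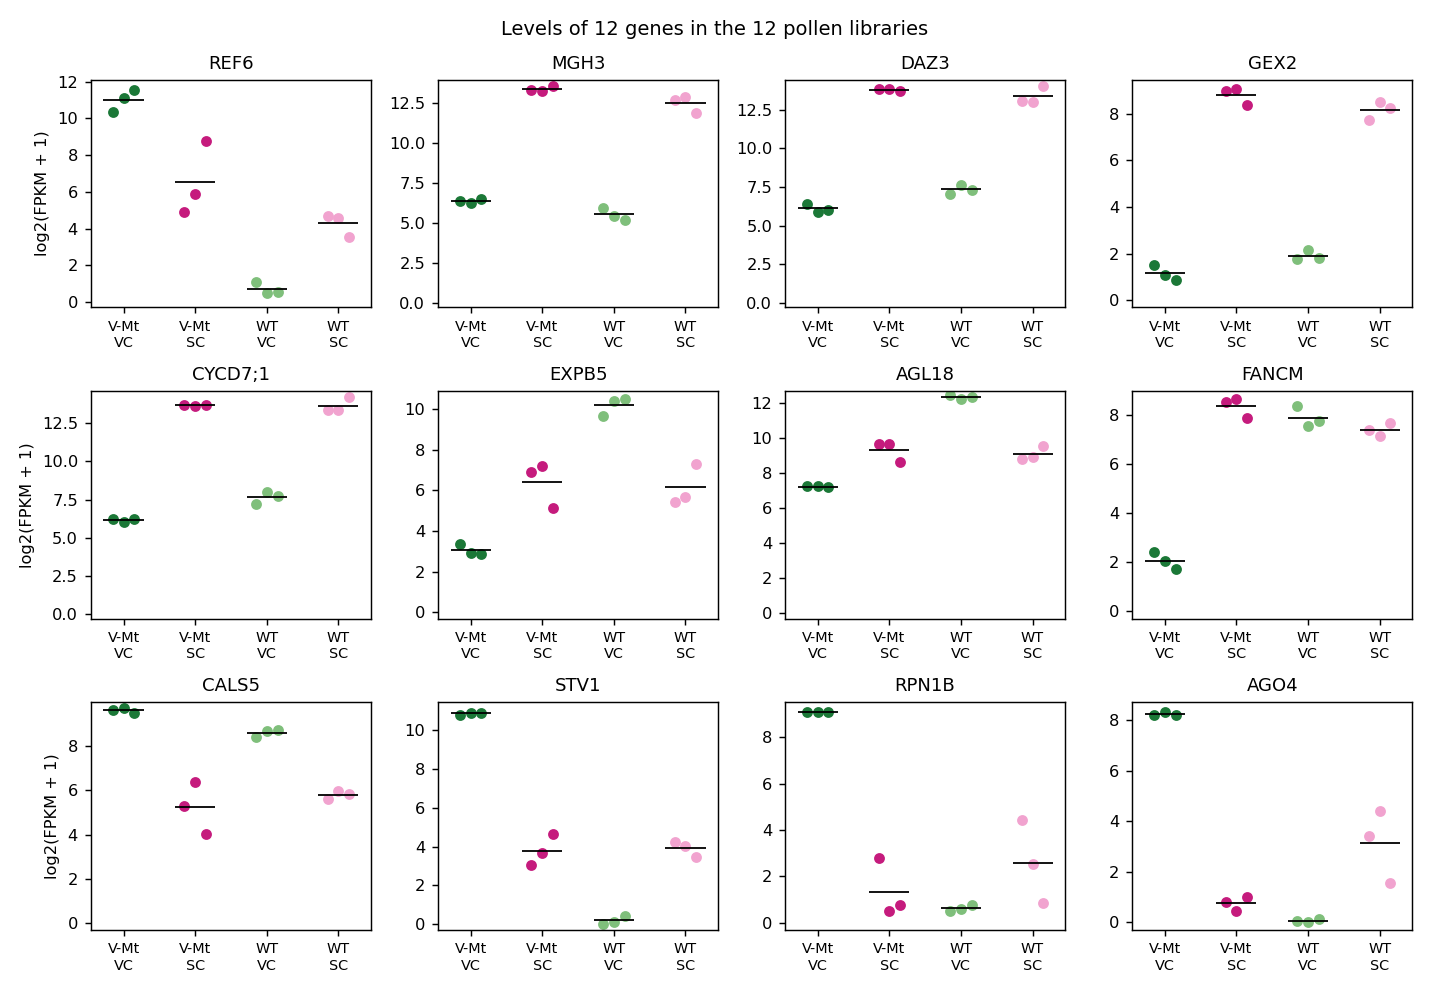
Level of 12 genes, as log2(FPKM + 1), in each of the 12 pollen libraries; each point is 1 library and each line the mean of 3. MGH3, DAZ3, GEX2 and CYCD7;1 are high in the SC libraries of both lines, EXPB5 and AGL18 are higher in SC in V-Mt and lower in SC in WT, CALS5 is lower in SC in both, and STV1, RPN1B and AGO4 are highest in V-Mt VC.

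Cell-type differences were widespread and mostly pointed to V-Mt VC. Of 19733 tested genes, 71.4% passed in V-Mt: 2650 were higher in SC (13.4%) and 11440 lower (58%), with a median difference of -1.72. In WT, tested with the same estimate of spread but on other samples, 40.4% passed, of which 5390 were higher (27.3%) and 2591 lower (13.1%), with a median of 0.36. The V-Mt libraries of VC lay above all V-Mt libraries of SC for 61.2% of tested genes, and below all of them for 14.8%. Scaling changed this split: after median-ratio scaling 3061 genes were higher and 10588 lower in V-Mt (median -1.35), and quantile normalization left 4802 higher and 5947 lower (median -0.04). The excess of lower genes thus depends on the scale, and single differences are to be read against these medians. Of the tested genes, 3248 (16.5%) reached 1 FPKM in the V-Mt VC libraries and in no other library, and such genes can only pass as lower.

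Each gene was then placed by both lines together. A difference was called kept when it passed in both lines in the same direction, turned round when it passed in opposite directions, lost when it passed in WT only and gained when it passed in V-Mt only; the last 3 also required the interaction (the V-Mt difference minus the WT difference) to pass. The interaction passed for 67.7% of tested genes, as higher for 7.18% and as lower for 60.5%. Either direction counted, 17.3% of tested genes were kept, 9.87% turned round, 10.2% were lost and 39.7% gained. The kept genes numbered 1970 higher (9.98% of tested) and 1434 lower (7.27%). The interaction also passed for 831 of the kept higher and 442 of the kept lower genes. Kept thus refers to the direction and not to a difference of equal size. Turned round were 268 genes that were higher in V-Mt SC and lower in WT SC (1.36%) and 1679 of the reverse kind (8.51%). Lost were 1383 genes higher in WT SC (7.01%) and 621 lower there (3.15%), and gained were 203 higher (1.03%) and 7624 lower (38.6%). Of the gained lower genes, 3229 (42.4%) reached 1 FPKM in the V-Mt VC libraries alone, and without V-Mt VC replicate 1, 2 or 3 the class held 4020, 4034 or 4062 genes. The number lower in V-Mt was then 7263, 7287 or 7380. In terms of the WT lists, 36.5% of the 5390 genes higher in WT SC were also higher in V-Mt SC, 31.2% were lower there and 32.3% did not pass. Of the 2591 genes lower in WT SC, 55.3% were also lower in V-Mt SC, 10.3% were higher and 34.3% did not pass. The number turned round to higher was 417 without V-Mt SC replicate 3.

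The classes differed in how far they held under other scalings. Of the kept higher genes, 82.1% stayed in that class under both median-ratio scaling and quantile normalization, and of those turned round to higher 96.6% did. The share was 51.4% for kept lower, 28.7% for turned round to lower, 34.4% for gained lower and 14.5% for lost higher. Both scalings moved the median V-Mt difference up, from -1.72 to -1.35 and -0.04. They moved the median WT difference down, from 0.36 to 0.07 and -0.06. Such shifts favour genes turned round to higher over those turned round to lower, so these shares do not rank the classes by stability. Median levels show where each class sits: genes turned round to lower had a median of 36.4 FPKM in V-Mt VC, 2.9 in V-Mt SC, 0.19 in WT VC and 11.04 in WT SC. Genes turned round to higher had 11.7, 57.4, 351 and 79.7 FPKM in the same order, so for both kinds the largest distance between the lines was in VC.

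**Figure D2:**
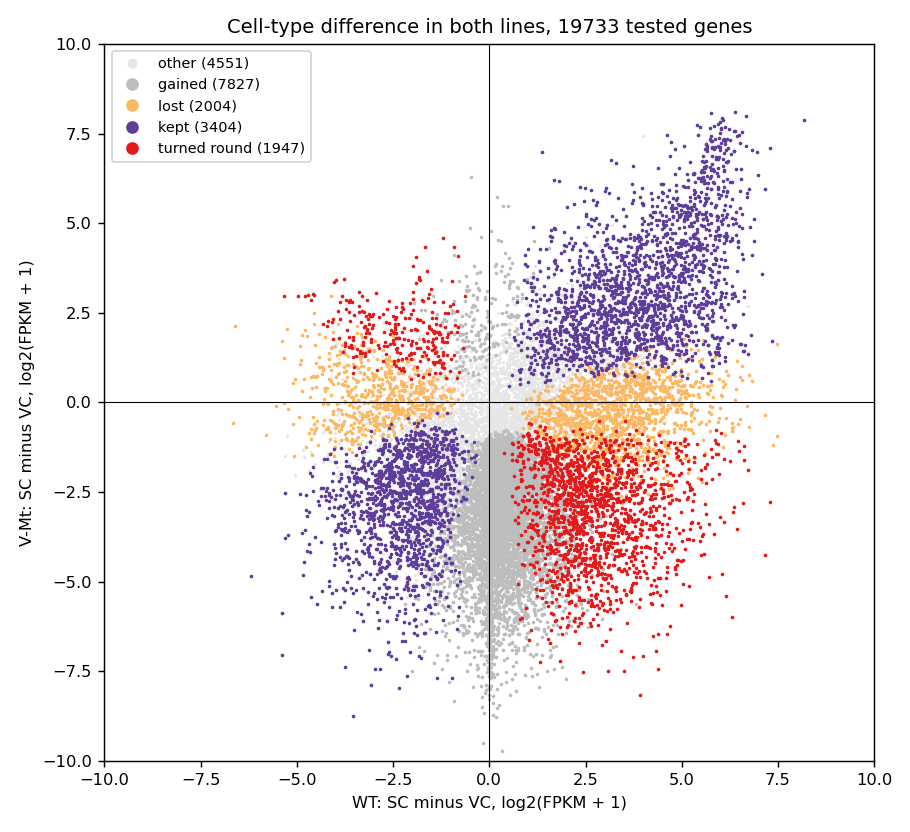
SC minus VC difference of each of the 19733 tested genes in WT (horizontal) and V-Mt (vertical), both on the log2(FPKM + 1) scale, coloured by class with the number of genes. Kept genes fill the upper right and lower left, 1679 of the turned-round genes lie lower right and 268 upper left, and the gained genes form the column below 0.

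Sperm identity genes kept their difference. Of 12 tested regulators and targets of the DUO1 network, 11 rose in V-Mt SC and none fell, with a median of 6.49 beside -1.72 over all tested genes; 13.4% of all tested genes rose. In WT the same 11 rose, and all 11 were kept. The interaction passed as higher for 4 of the 12 and as lower for 2, beside 7.18% and 60.5% of all tested genes. MGH3 (AT1G19890), the sperm histone H3 that is also the RFP marker and whose reads include the transgene, stood at 82.8, 74.9 and 90.5 FPKM in V-Mt VC and 10415, 9683 and 12075 in V-Mt SC. DAZ3 (AT4G35700), a zinc finger factor of the network, stood at 85.1, 58.9 and 64.5 in VC and 14808, 14507 and 13229 in SC. The groups do not overlap (log2 7.67, SE 0.27, limma adjusted p = 6.24e-09). The F-box gene DAF1 (AT3G62230) rose by 7.28 (SE 0.25, limma adjusted p = 6.24e-09), from 437, 309 and 323 to 59375, 59069 and 47106 FPKM. HTB8 (AT1G08170), a histone H2B of pollen, held 6.01, 3.57 and 7.23 FPKM in VC and 957, 1087 and 1092 in SC.

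DUO1 itself (AT3G60460) showed a narrower gap. It stood at 35.9, 36.7 and 32.4 FPKM in V-Mt VC and 72.3, 149.5 and 96.4 in V-Mt SC (log2 1.51, SE 0.48, limma adjusted p = 0.0152), beside 0.28, 1.74 and 1.48 in WT VC and 267, 80.9 and 97.4 in WT SC (log2 5.97). All V-Mt SC libraries lie above all V-Mt VC libraries, and the interaction of -4.46 passed (SE 0.67, limma adjusted p = 0.000181). DAN1 (AT3G04620), another DUO1 target, moved likewise, with 3393, 3389.5 and 3084 FPKM in V-Mt VC, 14618, 14738 and 13026 in V-Mt SC and 161, 165 and 130.1 in WT VC. Its difference was 2.1 in V-Mt and 6.18 in WT, and the interaction of -4.08 passed (limma adjusted p = 2.38e-07). Under quantile normalization its V-Mt difference turned to -0.27 and did not pass. DUO3, the member that did not pass, held 27.6, 32.7 and 25 FPKM in V-Mt VC and 33.6, 38.6 and 13.8 in V-Mt SC.

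Genes of gamete attachment and fusion kept the direction of their difference: all 8 tested members rose in both lines, with a median of 6.28 in V-Mt. Over all tested genes 13.4% rose in V-Mt and 27.3% in WT. The size of the difference was not the same in both lines for several members. The interaction passed as higher for 4 of the 8 and as lower for 2, beside 7.18% and 60.5% of all tested genes. GEX2 (AT5G49150), which acts in gamete attachment, stood at 1.9, 1.1 and 0.82 FPKM in V-Mt VC and 506, 524 and 330.4 in V-Mt SC (log2 7.64, SE 0.30, limma adjusted p = 6.53e-09). DMP9 (AT5G39650), a membrane protein needed for fertilisation, stood at 4.31, 4.32 and 6.62 FPKM in VC and 1269, 1093 and 1026 in SC. GCS1 (AT4G11720), the gamete fusion protein, held 13.4, 16.2 and 16 in VC and 203, 184 and 282 in SC (log2 3.77, SE 0.39, limma adjusted p = 6.61e-06). TET12 (AT5G23030), a tetraspanin of the sperm membrane, and GEX3 (AT5G16020) rose by 6.47 and 7.47. No library of one group overlapped the other in any of these. Both other scalings also gave 11 and 8 rises for the sperm lists, but the 11 under quantile normalization include DUO3 and not DAN1.

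The promoters of MGH3 and DAZ1 are shown because both genes are known DUO1 targets and kept their difference. DAZ1 (AT2G17180), a zinc finger factor that represses other programmes in sperm, stood at 1.2, 0.27 and 0.74 FPKM in V-Mt VC and 83.6, 85.5 and 36.9 in V-Mt SC. Each line gives the 250 bases before the annotated gene start in the TAIR10.1 assembly, read 5′ to 3′ on the gene's strand, at chr1:6904713-6904962 (plus strand) for MGH3 and chr2:7477684-7477933 (minus strand) for DAZ1. Capitals mark exact matches, on either strand, to AACCGT (a Myb box read by DUO1), AAACCCTA (the telo box), TGGGCC (a site II element) or CTCTGTTT (a form of the motif that REF6 recognises), and no matches shown overlap.
MGH3: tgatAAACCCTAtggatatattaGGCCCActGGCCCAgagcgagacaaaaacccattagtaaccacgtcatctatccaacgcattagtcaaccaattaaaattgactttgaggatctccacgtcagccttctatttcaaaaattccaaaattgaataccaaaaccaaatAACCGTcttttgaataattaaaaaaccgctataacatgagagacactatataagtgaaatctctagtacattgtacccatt
DAZ1: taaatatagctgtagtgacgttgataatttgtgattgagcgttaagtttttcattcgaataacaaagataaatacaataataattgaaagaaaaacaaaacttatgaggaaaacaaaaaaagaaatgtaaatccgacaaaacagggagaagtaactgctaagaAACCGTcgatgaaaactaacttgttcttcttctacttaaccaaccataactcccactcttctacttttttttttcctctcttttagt
The Myb box begins 81 bases before the start of MGH3 and 87 bases before that of DAZ1. It occurs in 5 of 12 promoters of the DUO1 network, 5 of 8 of the fusion genes, 11.4% of kept higher genes and 8.37% of the 17039 promoters of tested genes. The REF6 form occurs in 3.18% of all, in 3.04% of kept higher genes, in 6.3% of genes turned round to higher, in 5.42% of lost lower genes and in 2.86% of those turned round to lower. A match of letters is a description and not a bound site.

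Replication genes mostly remained higher in SC. Of 23 tested replication genes, 17 rose and 1 fell in V-Mt (median 3.56), beside 13.4% and 58% of all tested genes. In WT 22 rose and 0 fell, beside 27.3% and 13.1%. Kept higher were 17, beside 9.98% of all tested genes. The interaction passed as higher for 4 of the 23 and as lower for 7, beside 7.18% and 60.5% of all tested genes. ORC6 (AT1G26840), a subunit of the origin recognition complex, stood at 131, 122 and 89.9 FPKM in V-Mt VC and 8212, 7881 and 5777 in V-Mt SC (log2 5.98, SE 0.39, limma adjusted p = 1.71e-07). TSO2 (AT3G27060), a ribonucleotide reductase subunit that supplies deoxynucleotides, stood at 41.6, 34.2 and 48.7 in VC and 6061, 6538 and 6007 in SC. The licensing genes CDC6 (AT2G29680) and MCM2 (AT1G44900) rose by 5.71 and 5.52. The member that fell was PCNA2 (AT2G29570), a sliding clamp of the replication fork, with 9.58, 4.73 and 8.73 FPKM in V-Mt VC and 0.98, 3.72 and 0.11 in V-Mt SC, and its difference of -1.94 became 0.36 under quantile normalization and did not pass without V-Mt VC replicate 1 or 3 or V-Mt SC replicate 1 or 3.

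Among cyclins, CDKs and their inhibitors, 15 of 32 tested members rose and 6 fell in V-Mt, beside 13.4% and 58% of all tested genes. In WT 25 rose and 0 fell. All 15 V-Mt rises were kept and 3 members turned round to lower, or 1 without V-Mt VC replicate 1 or 2. CYCD7;1 (AT5G02110), a D-type cyclin, stood at 74, 63.8 and 74 FPKM in V-Mt VC and 13351, 12999.8 and 13128 in V-Mt SC (log2 7.53, SE 0.26, limma adjusted p = 6.24e-09). The mitotic genes CDKB1;2 (AT2G38620) and CYCB1;2 (AT5G06150) rose by 7.04 and 6.06, and CYCA2;1 (AT5G25380) by 6.21. CYCD5;1 (AT4G37630) went the other way, with 17.44, 15.8 and 18.3 FPKM in V-Mt VC, 6.25, 4.9 and 0 in V-Mt SC, 0.12, 0 and 0.04 in WT VC and 10.5, 17.9 and 5.43 in WT SC. Its difference of -2.38 (limma adjusted p = 0.00906) did not pass under quantile normalization, where 20 members rose and 1 fell.

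**Figure D3:**
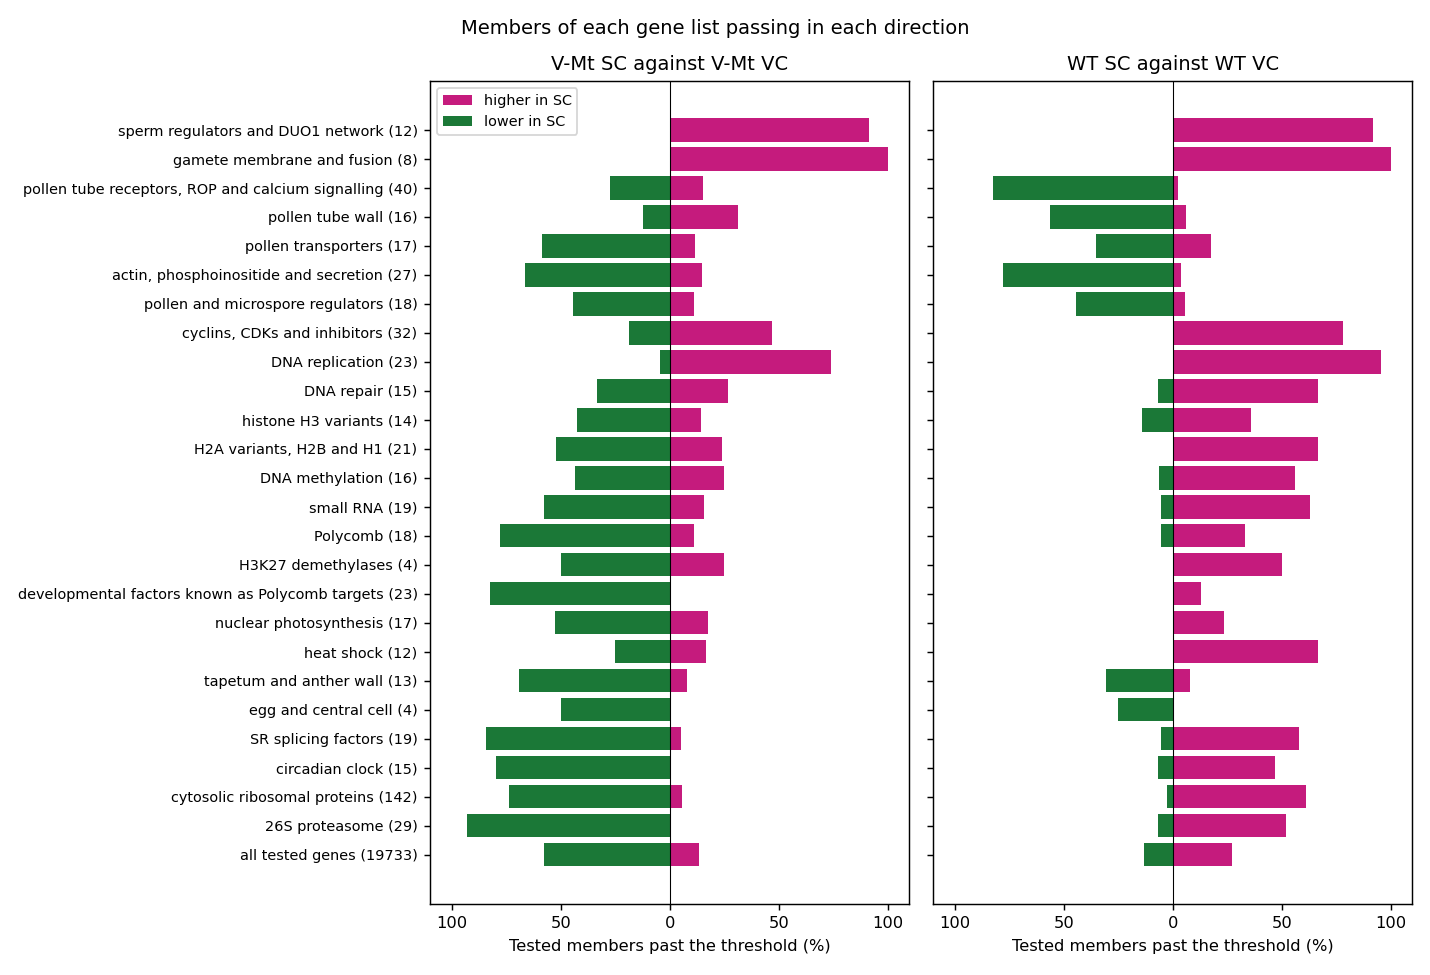
Share of tested members of each gene list (number tested in brackets) that passed as higher in SC (right of 0) or lower in SC (left of 0), in V-Mt and in WT. Sperm and fusion genes point right in both lines, tube genes point left in WT and to both sides in V-Mt, and ribosomal and proteasome genes point left in V-Mt and right in WT.

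Pollen tube genes, the hallmark of the vegetative cell, showed all 3 outcomes. Of 40 tested receptor, ROP and calcium signalling genes, 33 fell and 1 rose in WT, but 11 fell and 6 rose in V-Mt (median -0.39 in V-Mt and -2.57 in WT); 10 were kept lower, 13 lost and 5 turned round. Without V-Mt SC replicate 3 the number turned round was 8, and without V-Mt VC replicate 1 or 2 the number kept lower was 6. Over all tested genes 58% fell and 13.4% rose in V-Mt. One further listed gene was below the filter. The V-Mt split depends on scale: median-ratio scaling gave 11 rising and 7 falling (median 0.05), and quantile normalization 17 rising and 6 falling (median 1.23). The median member stood at 42.3, 36.9 and 34.4 FPKM in V-Mt VC, 49.5, 49.7 and 20.3 in V-Mt SC, 342, 353 and 341 in WT VC and 51.5, 54.6 and 80.3 in WT SC. V-Mt SC replicate 3 is the lowest of all 12 libraries for these genes.

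The genes that turned round include receptor kinases. PRK4 (AT3G20190), a pollen receptor kinase, stood at 20.4, 14.7 and 11.6 FPKM in V-Mt VC, 63.9, 44 and 50.9 in V-Mt SC, 240.3, 370.4 and 329 in WT VC and 97.7, 102 and 86.2 in WT SC. It was higher in V-Mt SC (log2 1.72, SE 0.27, limma adjusted p = 0.000161) and lower in WT SC (log2 -1.69), and the interaction of 3.41 passed (limma adjusted p = 1.87e-05). MRI (AT2G41970), a receptor-like cytoplasmic kinase of tube integrity, held 3.16, 4.16 and 3.38 FPKM in V-Mt VC and 37.9, 33.3 and 8.89 in V-Mt SC (log2 2.38, SE 0.55, limma adjusted p = 0.00264). BUPS1 (AT4G39110), a receptor of RALF peptides, held 40.6, 32.5 and 32.3 in VC and 103, 72.1 and 126 in SC (log2 1.46). These genes do not overlap between V-Mt groups, and the direction stayed the same for each under both other scalings.

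For several central tube genes the WT difference was lost. ANX1 (AT3G04690), a receptor kinase that keeps the tube intact, stood at 13.3, 15.6 and 10.9 FPKM in V-Mt VC and 13.2, 7.71 and 10.0 in V-Mt SC, against 104, 113 and 114 in WT VC and 8.85, 2.31 and 19.6 in WT SC. The V-Mt groups overlap (log2 -0.35, limma adjusted p = 0.575), and the interaction of 3.32 passed (limma adjusted p = 0.00294). ROP1 (AT3G51300), the GTPase that polarises the tip, held 189, 174 and 161 FPKM in VC and 137, 131 and 156 in SC of V-Mt and 1072, 1069 and 1026 in VC and 198, 227 and 208 in SC of WT (interaction 2.02, limma adjusted p = 1.14e-05).

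A minority remained lower in V-Mt SC. CNGC16 (AT3G48010), a cyclic nucleotide-gated calcium channel, stood at 106, 108 and 97.1 FPKM in V-Mt VC and 13.8, 7.95 and 5.05 in V-Mt SC (log2 -3.49, SE 0.36, limma adjusted p = 6.73e-06), close to its WT difference of -3.11. CNGC18 (AT5G14870), the channel essential for tube tip calcium, held 431, 493 and 377 in VC and 79.1, 143 and 86.1 in SC (log2 -2.11). CNGC7 (AT1G15990) held 8.77, 10.9 and 6.98 in VC and 2.56, 0 and 0 in SC, and MLO9 (AT1G42560), a membrane protein, 6.29, 6.29 and 4.76 in V-Mt VC while it is listed at 0 in each V-Mt SC library; neither passed under quantile normalization. PRK3 (AT3G42880) held 121, 121 and 75 in VC and 41.5, 39.5 and 0.69 in SC; its difference of -2.87 (limma adjusted p = 0.0373) did not pass without V-Mt SC replicate 3, without V-Mt VC replicate 1 or 2, or under either other scaling.

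Of 16 tube wall genes, 5 rose and 2 fell in V-Mt (median 0.04), beside 13.4% and 58% of all tested genes. In WT 1 rose and 9 fell. For V-Mt, median-ratio scaling gave 7 rising and 1 falling (median 0.51), and quantile normalization 7 and 3 (median 0.76). Without V-Mt SC replicate 3, 4 rose and 7 fell. EXPB5 (AT3G60570), an expansin that loosens cell walls, stood at 9.16, 6.59 and 6.37 FPKM in V-Mt VC, 120.2, 145 and 34 in V-Mt SC, 794, 1339.8 and 1458 in WT VC and 42.3, 50.9 and 156 in WT SC. It turned round (log2 3.36, SE 0.60, limma adjusted p = 0.000447; WT log2 -4.03; interaction 7.40, limma adjusted p = 2.41e-05). CSLD1 (AT2G33100), a cellulose synthase-like enzyme, and LRX9 (AT1G49490), a leucine-rich repeat extensin, turned round with 2.03 and 1.55 in V-Mt and -2.54 and -1.41 in WT. LRX11 (AT4G33970), a related extensin and 1 of the 15 vegetative markers, was gained, with 14.8, 10.2 and 11.1 FPKM in V-Mt VC and 138, 136 and 208 in V-Mt SC (log2 3.62, SE 0.32, limma adjusted p = 1.93e-06). The callose synthase CALS5 (AT2G13680), which builds the callose wall of microspores and tubes, remained lower, with 801, 840.1 and 731 FPKM in VC and 38.6, 83 and 15.5 in SC (log2 -4.38, SE 0.46, limma adjusted p = 7.53e-06).

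Among actin, phosphoinositide and secretion genes, kept was the most frequent class. In V-Mt 18 of 27 fell and 4 rose, beside 58% and 13.4% of all tested genes, against 21 and 1 in WT. Of the 27, 14 were kept lower, 3 turned round to higher, 4 were lost and 4 were gained falls. Over all tested genes 7.27% were kept lower and 38.6% were gained falls. Without V-Mt SC replicate 3, 5 turned round to higher and 2 were lost. For V-Mt, quantile normalization gave 13 falling and 7 rising, with 11 kept lower, 5 turned round to higher and 7 lost. Whether the split differs from that of the receptor genes was not tested. SYP124 (AT1G61290), a syntaxin of the tube membrane, stood at 398, 457 and 507 FPKM in V-Mt VC and 19.8, 12.7 and 13 in V-Mt SC (log2 -4.84, SE 0.25, limma adjusted p = 2.78e-08). The myosin XIE (AT1G54560) stood at 599, 439 and 499 in VC and 14.5, 8.62 and 1.9 in SC, a gained difference of -6.07 (limma adjusted p = 3.38e-06), while its WT difference of -0.83 did not pass. EXO70C1 (AT5G13150), an exocyst subunit, turned round, with 0.88, 2.45 and 0.37 FPKM in VC and 19, 16.8 and 35.6 in SC of V-Mt and 89.1, 69.7 and 69.2 in VC and 11.1, 24.9 and 31.4 in SC of WT. The phosphoinositide kinase PIP5K11 (AT1G01460) turned round as well (V-Mt 1.91, WT -1.08). The 5 reproductive and vegetative actins of the list share long stretches of sequence, so their values are uncertain.

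Among 17 transporters, 10 fell and 2 rose in V-Mt, near the 58% and 13.4% of all tested genes, against 6 and 3 in WT. With quantile normalization 7 fell and 3 rose. SWEET8 (AT5G40260), a sugar exporter needed for early pollen nutrition, stood at 827, 683 and 657 FPKM in V-Mt VC, 7.97, 31.7 and 23.1 in V-Mt SC, 0.62, 3.54 and 1.59 in WT VC and 50.2, 28.5 and 16.9 in WT SC, and turned round (V-Mt -5.23, WT 3.49, limma adjusted p = 9.01e-06 and 0.00053). The sugar importers STP2 (AT1G07340) and STP8 (AT5G26250) were gained falls. In V-Mt VC, STP2 held 102, 93.2 and 110.5 FPKM and STP8 held 17.61, 11.3 and 11.6; in V-Mt SC STP2 held 1.49, 0 and 5.54 and STP8 is listed at 0 in each library. STP11 (AT5G23270), an importer of the tube, turned round to higher, with 33, 20.3 and 17.35 FPKM in VC and 90.3, 62.1 and 53.7 in SC (log2 1.52, WT -1.58).

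Of 18 tested regulators of pollen development, 8 were lower and 2 higher in V-Mt, beside 58% and 13.4% of all tested genes. With quantile normalization 6 were lower and 5 higher. AGL18 (AT3G57390), a MADS factor, stood at 151, 151 and 146 FPKM in V-Mt VC, 803, 816 and 405 in V-Mt SC, 5533, 4864 and 5253 in WT VC and 450.1, 492 and 743 in WT SC, and turned round to higher (log2 2.1, SE 0.27, limma adjusted p = 4.41e-05; WT -3.25). AGL104 (AT1G22130), a MIKC* factor of pollen maturation, remained lower, with 611, 612 and 401 FPKM in VC and 47.6, 116 and 2.28 in SC. WRKY34 (AT4G26440) and MYB81 (AT2G26960), a factor of the microspore stage, were gained differences of -5.19 and -3.53.

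**Figure D4:**
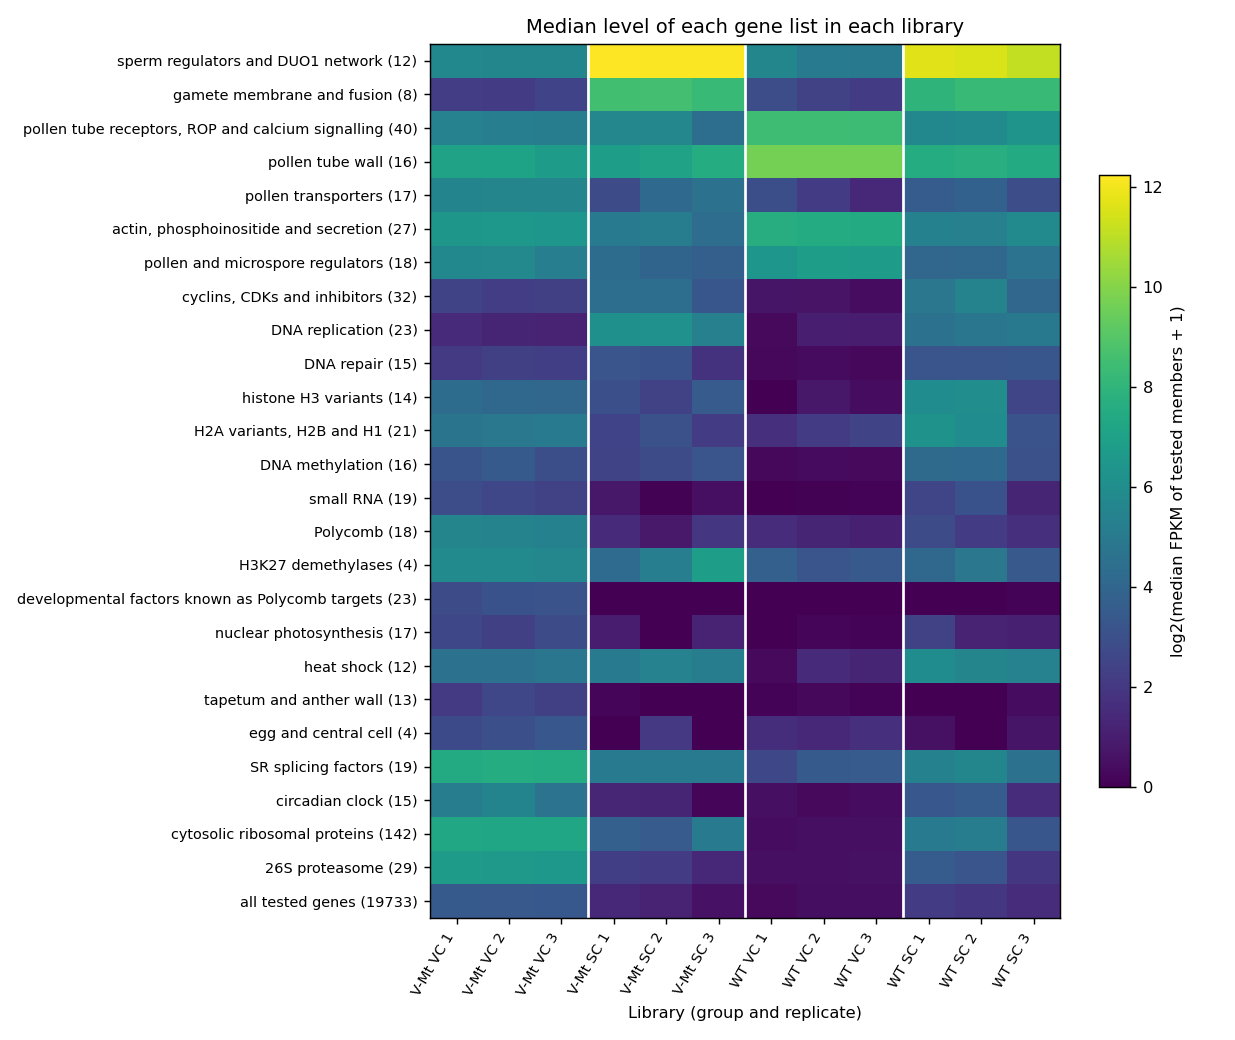
Median FPKM of the tested members of each list (number in brackets) in each of the 12 libraries, drawn as log2(median + 1). Ribosomal, proteasome and SR genes are brightest in the 3 V-Mt VC libraries, tube receptor and wall genes in the 3 WT VC libraries, and the sperm lists in the SC libraries of both lines.

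Ribosomal proteins make up the core of the translation machinery together with ribosomal RNA. Of 142 tested cytosolic ribosomal protein genes, out of 149 listed, 105 fell and 8 rose in V-Mt (median -3.29). In WT 87 rose and 4 fell (median 3.58). Over all tested genes 58% fell and 13.4% rose in V-Mt, and 27.3% rose and 13.1% fell in WT. Of the 142, 62 turned round to lower and 38 were gained falls, beside 8.51% and 38.6% of all tested genes. The share of gained falls was thus below that of all tested genes. The median member stood at 155, 146 and 149 FPKM in V-Mt VC, 12.7, 10.5 and 30.6 in V-Mt SC, 0.315, 0.435 and 0.415 in WT VC and 33.1, 36.1 and 8.66 in WT SC. The 3 V-Mt VC libraries are the highest and the 3 WT VC libraries the lowest, with all SC libraries between. The direction held under both other scalings, with 96 lower and 8 higher (median -2.82) and 93 lower and 11 higher (median -2.35). Most of these genes have near-identical copies whose shared reads could be split by the authors' counting, so single values are uncertain.

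STV1 (AT3G53020, chromosome 3, 19660488 to 19662025 on the minus strand), which encodes ribosomal protein L24, stood at 1782, 1935 and 1939 FPKM in V-Mt VC and 7.29, 11.6 and 24.1 in V-Mt SC (log2 -7.10, SE 0.39, limma adjusted p = 4.5e-08), beside 0, 0.09 and 0.33 in WT VC and 18.1, 15.3 and 9.96 in WT SC (log2 3.73, limma adjusted p = 2.47e-05). The interaction was -10.83 (SE 0.55, limma adjusted p = 2.38e-07). AT1G67430, a member of the L22p/L17e family, stood at 1940.1, 2133 and 2084 FPKM in VC and 35.4, 16.8 and 50.2 in SC of V-Mt and 0.33, 0.33 and 0.24 in VC and 185, 231 and 23.63 in SC of WT. AT5G20290, of the S8e family, held 4199, 4791 and 4217 FPKM in V-Mt VC and 50.4, 11.8 and 50.2 in V-Mt SC. Each of these has its V-Mt VC libraries above all others and its WT VC libraries below all others. AT1G36240, an L7Ae/L30e family gene, held 210.4, 230.3 and 163 FPKM in V-Mt VC and is listed at 0 in every other pollen library.

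The promoters of STV1 and AT1G67430 are shown because both genes are among the 62 ribosomal protein genes that turned round and site II elements and telo boxes are known elements of their promoters. They are given as above, in TAIR10.1, at chr3:19662026-19662275 (minus strand) and chr1:25261884-25262133 (plus strand), with the same motifs in capitals.
STV1: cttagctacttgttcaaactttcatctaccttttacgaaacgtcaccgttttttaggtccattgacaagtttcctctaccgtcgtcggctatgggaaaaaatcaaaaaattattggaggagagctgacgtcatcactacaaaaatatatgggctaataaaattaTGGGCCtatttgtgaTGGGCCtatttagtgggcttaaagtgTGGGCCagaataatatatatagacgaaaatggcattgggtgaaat
AT1G67430: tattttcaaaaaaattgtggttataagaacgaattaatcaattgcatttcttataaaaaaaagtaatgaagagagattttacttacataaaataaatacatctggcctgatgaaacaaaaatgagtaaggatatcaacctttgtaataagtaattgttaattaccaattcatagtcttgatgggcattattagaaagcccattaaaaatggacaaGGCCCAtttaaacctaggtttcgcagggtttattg
TGGGCC on either strand occurs in 46.5% of the 142 ribosomal promoters, 56.5% of the 62 that turned round, 38.8% of the other 80 and 18.1% of all 17039. By class it occurs in 29.2% of genes turned round to lower, 24% of lost higher, 18.8% of kept higher, 17.9% of gained lower and 6.3% of those turned round to higher. The telo box occurs in 21.1% of ribosomal promoters, 14.5% of the 62 that turned round, 26.2% of the other 80 and 4.74% of all. These shares are descriptions, and what they have to do with the changes was not tested.

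Of 29 tested subunits of the 26S proteasome, 27 fell and none rose in V-Mt (median -4.21), beside 58% and 13.4% of all tested genes. In WT 15 rose and 2 fell. Turned round to lower were 14 and gained falls were 10, beside 8.51% and 38.6% of all tested genes, so only the former exceeds its share. Without WT SC replicate 3 these counts were 18 and 6. They were 10 and 14 without WT VC replicate 1 or 3, and 11 and 13 without WT VC replicate 2. Median-ratio scaling gave 25 falls and 0 rises in V-Mt, with 10 turned round, and quantile normalization 21 and 0, with 6 turned round. RPN1B (AT4G28470, chromosome 4, 14066731 to 14072582 on the minus strand), a scaffold subunit of the regulatory particle, stood at 535, 542 and 541 FPKM in V-Mt VC and 5.89, 0.42 and 0.68 in V-Mt SC (log2 -7.73, SE 0.82, limma adjusted p = 8.74e-06). PAE2 (AT3G14290) and PBE1 (AT1G13060) are subunits of the core particle. In V-Mt VC, PAE2 held 189, 177 and 175 FPKM and PBE1 held 172, 166 and 163, and neither passed 1.55 in any V-Mt SC library. PAF2 (AT1G47250), another core subunit, turned round, with -5.59 in V-Mt and 2.95 in WT.

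Of 19 tested SR splicing factors, which define exons, 16 fell and 1 rose in V-Mt (median -2.15), beside 58% and 13.4% of all tested genes. In WT 11 rose and 1 fell. Turned round to lower were 10, beside 8.51% of all tested genes. That number was 6 after median-ratio scaling and 7 after quantile normalization. It was also 7 with the replicate number as a block and without V-Mt VC replicate 1, 2 or 3. RSZ22a (AT2G24590) stood at 191, 194 and 205 FPKM in V-Mt VC, 20.4, 20.2 and 22.6 in V-Mt SC, 0.29, 1.35 and 1.5 in WT VC and 19.6, 6.28 and 22.5 in WT SC (V-Mt -3.17, interaction -6.12, limma adjusted p = 9.78e-06). RSZ22 (AT4G31580) moved alike, with -3.12 in V-Mt and 2.83 in WT. SR34a (AT3G49430) was a gained difference of -3.70. With quantile normalization 14 fell and 1 rose.

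**Figure D5:**
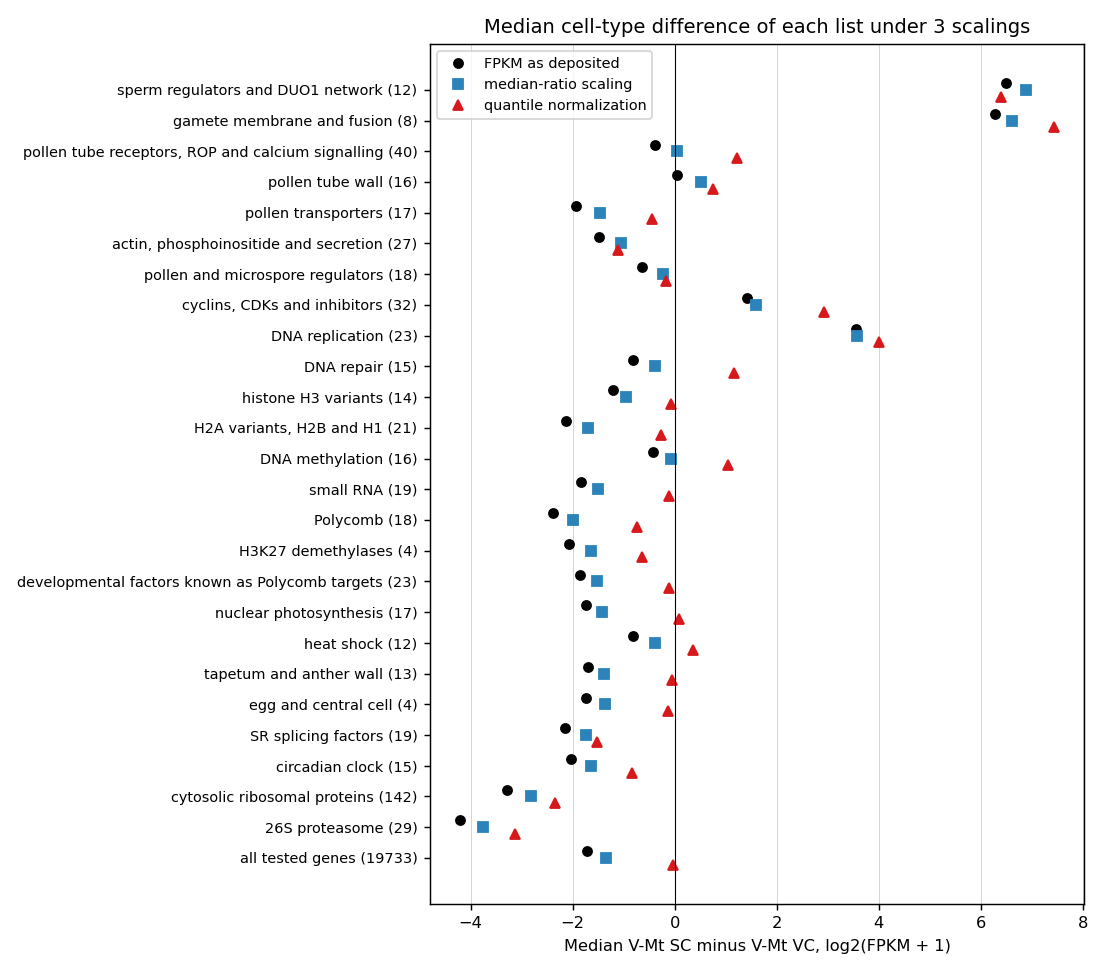
Median V-Mt SC minus V-Mt VC difference, on the log2(FPKM + 1) scale, of the tested members of each list (number in brackets) for FPKM as deposited, after median-ratio scaling and after quantile normalization. Ribosomal, proteasome and SR genes stay below 0 and the sperm lists above 0 under all 3, while the tube receptor, DNA repair, DNA methylation, heat shock and photosynthesis medians cross 0.

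Of 18 tested Polycomb genes, 14 fell and 2 rose in V-Mt (median -2.39), beside 58% falling and a median of -1.72 over all tested genes, against 1 and 6 in WT. Gained falls were 10, beside 38.6% of all tested genes. With quantile normalization 8 fell and 3 rose in V-Mt. The WT split depends on scale: 4 fell and 3 rose after median-ratio scaling, and 7 fell and 4 rose after quantile normalization. EMF2 (AT5G51230), a subunit of the complex that methylates lysine 27, stood at 69.2, 72 and 76.9 FPKM in V-Mt VC and 0.07, 0 and 0.11 in V-Mt SC (log2 -6.12, SE 0.51, limma adjusted p = 1.31e-06), with 2.27, 0.35 and 0.55 in WT VC and 4.99, 0.43 and 1.99 in WT SC. EMF1 (AT5G11530) and RING1B (AT1G03770), which act with the second Polycomb complex, fell by 5.45 and 5.38. FIE (AT3G20740), a subunit shared by the methylating complexes, turned round, with 48.3, 44.9 and 43.4 FPKM in VC and 4.32, 0.35 and 0 in SC of V-Mt and 1.02, 0.4 and 0.55 in VC and 15.3, 3.43 and 2.59 in SC of WT. FIS2 (AT2G35670), known as a seed-type homologue of EMF2, turned round at much higher levels: 1045, 879 and 894 FPKM in V-Mt VC, 318, 279 and 317 in V-Mt SC, 1.28, 2.33 and 2.2 in WT VC and 214, 277 and 388 in WT SC (V-Mt -1.62, WT 6.62, interaction limma adjusted p = 2.38e-07). The 2 that rose were the RING finger genes BMI1A (AT2G30580) and BMI1B (AT1G06770), both kept, by 3.35 and 3.45.

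Of 32 listed developmental regulators known as Polycomb targets, 23 were tested. In V-Mt 19 fell and none rose, in WT 3 rose and none fell, and 16 were gained falls. These counts rest on the filter and are no support for a change of the list: without V-Mt VC replicate 1 or 3 only 11 of the genes were still tested, and 13 without replicate 2, with 7 falls and 6 gained falls in each case. Genes that pass the filter through the V-Mt VC libraries alone can only pass as lower. With quantile normalization 8 fell and 2 rose in V-Mt, and 5 fell and 1 rose in WT. The homeobox gene KNAT2 (AT1G70510) stood at 82.2, 65.3 and 57.4 FPKM in V-Mt VC and 0, 0 and 0.18 in V-Mt SC (log2 -6.02, SE 0.51, limma adjusted p = 1.53e-06). SEP2 (AT3G02310), a floral organ factor, held 73.3, 66.9 and 62.2 in VC and 0.4, 0.98 and 9.55 in SC, and KNAT6 (AT1G23380) 53.2, 48.7 and 48.9 in VC and 14.4, 0.15 and 2.67 in SC. MAF4 (AT5G65070), a flowering repressor, held 27.8, 23 and 17.5 in V-Mt VC and is listed at 0 in each V-Mt SC library. For all 4 the V-Mt VC libraries lie above all others.

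The demethylases of lysine 27 other than REF6 moved in different directions. JMJ30 (AT3G20810) turned round, with 31.2, 38.7 and 22.6 FPKM in V-Mt VC, 0.6, 0 and 0 in V-Mt SC and 5.21, 15.1 and 1.23 in WT SC (log2 -4.73, SE 0.60, limma adjusted p = 3.59e-05), and is listed at 0 in each WT VC library. JMJ13 (AT5G46910) was higher in V-Mt SC, with 82.3, 71.3 and 77.1 FPKM in VC and 137, 166 and 229 in SC (log2 1.16, SE 0.33, limma adjusted p = 0.00824), and its interaction did not pass. ELF6 (AT5G04240), the closest relative of REF6, held 5.54, 5.32 and 5.37 in VC and 8.59, 15.6 and 2.4 in SC, a difference that did not pass.

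Of 16 tested genes of DNA methylation, 4 rose and 7 fell in V-Mt, beside 13.4% and 58% of all tested genes. In WT 9 rose and 1 fell. The V-Mt split became 6 and 6 after median-ratio scaling, and 7 and 3 after quantile normalization. The maintenance factors MET1 (AT5G49160) and VIM1 (AT1G57820) remained higher in SC: MET1 stood at 4.73, 4.02 and 4.82 FPKM in V-Mt VC and 104, 116 and 90.6 in V-Mt SC (log2 4.24, SE 0.29, limma adjusted p = 2.51e-07), and VIM1 rose by 4.21. CMT3 (AT1G69770), which methylates CHG sites, turned round, with 41.3, 42.1 and 40.9 FPKM in VC and 2.89, 0.13 and 0 in SC of V-Mt and 0.34, 0 and 0 in VC and 17.7, 9.71 and 1.42 in SC of WT. CMT1 (AT1G80740) held 20.4, 22.6 and 20.6 FPKM in V-Mt VC and is listed at 0 in each V-Mt SC library.

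Of 19 tested small RNA genes, 11 were lower and 3 higher in V-Mt, a share of lower genes near the 58% of all tested genes, against 1 and 12 in WT. With quantile normalization 4 were lower and 6 higher. The 6 that turned round became 2 without WT VC replicate 1 or 2, 3 without WT VC replicate 3 and 9 without WT SC replicate 3. AGO4 (AT2G27040), an Argonaute of RNA-directed DNA methylation, stood at 297, 315 and 292 FPKM in V-Mt VC, 0.73, 0.37 and 0.98 in V-Mt SC, 0.02, 0 and 0.08 in WT VC and 9.73, 20.1 and 1.89 in WT SC. Its difference of -7.50 (SE 0.58, limma adjusted p = 7.39e-07) and its interaction of -10.57 passed, and it fell by 6.82 under quantile normalization. AGO2 (AT1G31280) and AGO6 (AT2G32940) turned round too, with -4.54 and -3.20 in V-Mt. SE (AT2G27100), which acts in microRNA processing, was a gained difference of -4.36. HST (AT3G05040), an exporter of small RNAs, fell by 2.34, but quantile normalization gave 0.03.

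Of 21 tested H2A, H2B and H1 genes, 5 rose and 11 fell in V-Mt, beside 13.4% and 58% of all tested genes. In WT 14 rose and 0 fell, and the V-Mt split became 8 and 6 with quantile normalization. HTB5 (AT2G37470) and HTB7 (AT3G09480), H2B genes with high sperm levels, were kept, with 167, 157 and 184 FPKM in VC and 10466, 11686 and 8449.8 in SC and 68.7, 63.1 and 83.2 FPKM in V-Mt VC and 1086, 1006 and 935 in V-Mt SC. HTA9 (AT1G52740) and HTA8 (AT2G38810), H2A.Z genes, were gained differences of -5.25 and -5.71. Of 14 tested H3 genes, 2 rose and 6 fell in V-Mt, against 5 and 2 in WT. In neither list was the share of falls above that of all tested genes. HTR14 (AT1G75600) and HTR8 (AT5G10980), an H3.3 gene, fell by 7.05 and 3.36. HTB1 (AT1G07790) turned round, with -4.08 in V-Mt, which did not pass without V-Mt SC replicate 2. Histone copies are alike in sequence, and the GFP marker of WT is an H2B, so these values are uncertain.

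DNA repair genes held both directions: 4 of 15 rose and 5 fell in V-Mt, beside 13.4% and 58% of all tested genes. In WT 10 rose and 1 fell. The V-Mt split was 7 and 1 under quantile normalization and 6 and 4 without V-Mt SC replicate 3. BRCA1 (AT4G21070), of homologous recombination, was kept, with 0.63, 0.62 and 0.5 FPKM in V-Mt VC and 68.3, 60.5 and 80.0 in V-Mt SC (log2 5.47, SE 0.31, limma adjusted p = 5.23e-08). LIG4 (AT5G57160), the ligase of end joining, turned round, with 91, 115 and 116 in VC and 7.35, 39.8 and 13.4 in SC of V-Mt and 0.1, 0.05 and 1.15 in VC and 87, 29.1 and 9.73 in SC of WT. XRI1 (AT5G48720) turned round as well, with -2.64 in V-Mt, which did not pass without V-Mt SC replicate 2 or 3 or under quantile normalization.

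Of 15 tested clock genes, 12 were lower and none higher in V-Mt SC, beside 58% lower over all tested genes, against 1 and 7 in WT; with quantile normalization 7 were lower and 1 higher. The Myb factors CCA1 (AT2G46830) and LHY (AT1G01060) act in the morning loop. CCA1 held 177, 213 and 159 FPKM in V-Mt VC and 1.49, 6.46 and 4.95 in V-Mt SC, and LHY held 118, 111 and 96.4 and then 2.2, 0.21 and 0.15. Their differences of -5.25 and -6.05 were gained (limma adjusted p = 4.56e-06 and 1.03e-06). PRR5 (AT5G24470), which represses them, turned round, with -5.57 in V-Mt and 2.12 in WT.

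Of 12 tested heat shock genes, 2 rose and 3 fell in V-Mt, beside 13.4% and 58% of all tested genes. In WT 8 rose and 0 fell. Of those 8, 2 were kept, 2 turned round and 4 were lost. Without WT SC replicate 1 the number that fell in V-Mt was 5. AT3G46230 and AT1G53540, which encode small heat shock proteins, were kept, with rises of 3.58 and 3.64. HSP90.1 (AT5G52640), a chaperone, turned round, with 72.8, 89.7 and 83.2 FPKM in V-Mt VC, 11.1, 13.5 and 9.29 in V-Mt SC, 3.15, 1.9 and 1.88 in WT VC and 84, 50.2 and 13.8 in WT SC (log2 -2.76, SE 0.53, limma adjusted p = 0.000794). With quantile normalization 4 rose and 1 fell. Levels in WT SC differ between replicates, with replicate 3 below replicates 1 and 2 for HSP90.1.

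Markers of other cell types were also unequal. Their counts are to be read against the 58% of all tested genes that fell and the 13.4% that rose in V-Mt. The 20 listed tapetum and anther wall genes summed to 102 to 109 FPKM in V-Mt VC, where 1 to 4 of them were at 0, and to 68.9 to 111.5 FPKM in V-Mt SC, where 10 to 17 were at 0. Of 13 tested, 9 fell and 1 rose in V-Mt, against 4 and 1 in WT, with 2 and 2 under quantile normalization and 5 falls among 10 tested without V-Mt VC replicate 1; the tapetal factor AMS (AT2G16910) held 9.3, 8.41 and 11.3 FPKM in V-Mt VC and 0.12, 0 and 0 in V-Mt SC. Photosynthesis genes summed to 172.2 to 179.8 FPKM in V-Mt VC and 1885 to 2240 in V-Mt SC, nearly all from RBCS3B (AT5G38410), a small subunit of Rubisco, at 25.4, 28.1 and 28.4 in VC and 1838, 1943 and 2155 in SC. Of 17 tested photosynthesis genes, 9 fell and 3 rose in V-Mt, near the shares of all tested genes. With quantile normalization 4 fell and 5 rose, and without V-Mt VC replicate 3, 6 of 15 fell and 1 rose. Among those named by the rule, RCA (AT2G39730), PSBO1 (AT5G66570), LHCB5 (AT4G10340) and RBCS1A (AT1G67090) fell by 4.22, 4.28, 3.91 and 2.73, the last not under quantile normalization. Of 10 egg and central cell genes 4 were tested and 2 fell, among them FWA (AT4G25530), a homeobox gene, with 76.3, 84.1 and 73.2 FPKM in V-Mt VC and 0.85, 0.73 and 7.77 in V-Mt SC. The part of such cells in any result above was not tested.

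The largest rises in V-Mt SC were kept sperm differences. All 10 of the largest rises were also higher in WT SC. AT4G35610, a zinc finger gene, stood at 29.6, 23.1 and 22 FPKM in V-Mt VC and 6911, 6741 and 7072 in V-Mt SC (log2 8.07, SE 0.25, limma adjusted p = 6.24e-09). AT5G05510, with a Mad3/BUB1 homology region, PAB6 (AT3G16380), a poly(A)-binding protein, and RALFL18 (AT2G33130), a peptide of the RALF family, rose by 7.81, 7.78 and 7.69. Also among the 10 were AT4G26960, AT5G08240 and AT5G64480, annotated as uncharacterised, AT4G11540, with a C1 domain, and AT5G28380, a tetratricopeptide repeat gene, with rises of 7.94, 7.89, 7.73, 7.70 and 7.89. Among the kept higher genes with the largest differences in both lines were CKS2 (AT2G27970), a CDK subunit, and NOA1 (AT3G47450), a plastid GTPase, at 7.16 and 7.11 in V-Mt.

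Among the 10 largest falls, 8 were gained, 1 was kept and 1 turned round. AT2G07640, annotated as a Rossmann-fold protein, stood at 1066, 1121 and 942 FPKM in V-Mt VC and 0, 0.31 and 0.45 in V-Mt SC, a difference of -9.72 (SE 0.29, limma adjusted p = 6.24e-09), and at most 0.44 in any WT library. FKBP53 (AT4G25340), a histone chaperone, turned round, with 351, 369 and 947 FPKM in V-Mt VC, 1.59, 0.36 and 0.47 in V-Mt SC, 1.31, 0.14 and 0.26 in WT VC and 55.4, 24.7 and 6.82 in WT SC. AT1G02330, an integrator complex-like gene, was kept, with 278, 305 and 289.7 FPKM in V-Mt VC and 0.25, 0.17 and 0.25 in V-Mt SC. Besides RPN1B, the others were AT2G42480 (a MATH domain gene), AT4G04260 (with a BAH domain), AT5G34780, AT2G05642, AT2G29850 and AT3G44580, with differences of -8.50, -8.17, -8.11, -7.91, -8.45 and -7.79.

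FANCM (AT1G35530), a DNA helicase that limits crossovers, had the largest interaction among the gained rises named by the rule, with 4.28, 3.19 and 2.34 FPKM in V-Mt VC, 374, 402 and 236 in V-Mt SC, 331, 188 and 217 in WT VC and 166, 142 and 207 in WT SC (log2 6.30, SE 0.31, limma adjusted p = 1.94e-08). Only the V-Mt VC libraries stand low. SYP72 (AT3G45280), a syntaxin, and AT2G40116, a phospholipase C, were gained rises of 4.11 and 5.47. HDT4 (AT2G27840), a plant-type histone deacetylase, was a gained difference of -7.43, with 746, 629.5 and 599.8 FPKM in V-Mt VC. GRP7 (AT2G21660), an RNA-binding protein under clock control, lost its WT rise, with 283, 296 and 305 FPKM in VC and 160.1, 123 and 188 in SC of V-Mt and 6.49, 0.91 and 0.87 in VC and 969, 903 and 172 in SC of WT (interaction -8.40, limma adjusted p = 2.5e-05). ARLA1B (AT3G49860) lost its WT fall, with 20.9, 19 and 14.4 FPKM in VC and 116, 72.5 and 65 in SC of V-Mt and 886, 989 and 1012 in VC and 6.8, 0 and 121 in SC of WT. For GRP7 and ARLA1B the V-Mt groups do not overlap and point against the WT difference, but the V-Mt difference did not pass. SAMDC (AT3G02470), an enzyme of polyamine synthesis, and TAF4 (AT5G43130), a general transcription factor, kept their fall, with -5.87 and -4.46 in V-Mt and -5.40 and -4.81 in WT.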

How the data were processed

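RNA of sorted nuclei from 12 pollen libraries was compared, 3 per group; 6 microspore libraries and the isoform tables were not used here. Per the labels' protocols, polyadenylated RNA was amplified with SMART-Seq HT. The authors deposited FPKM values per gene; per the submitters' processing notes, the tools for TAIR10 include RSEM 1.3.1, Bowtie2 2.3.5, HISAT2 2.1.0 and StringTie 1.3.5. Settings, strand and handling of shared reads are not given here. The table holds 28424 entries, 25068 with an AGI locus.

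From these values log2(FPKM + 1) was fitted with limma 3.58.1 (trend, R 4.3.3), 1 mean per group over all 12 libraries, without a replicate block. Genes at 1 FPKM or more in 3 libraries were tested (19733), 2-sided, with Benjamini-Hochberg adjustment at 0.05. The files hold no counts, so no count test was run; depth was inferred from how low values step within transcripts of 1200 bases or more, with fragments taken as 250 bases long. The scripts were tested on simulated data.

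The groups compared, the 25 lists and the alternatives were chosen with earlier results of these data known. The text names the 10 largest rises and falls, up to 5 genes per class and direction, REF6 and marker histones, and up to 4 members per list plus 2 turned round, with a mean of at least 5 FPKM outside the lists; 1 of the rises is not reported here. DUO1, DUO3, DAZ1, DAN1, GCS1, BUPS1, ANX1, ROP1, CNGC18, BMI1A, BMI1B and ELF6 were added after their values were seen. Alternatives were a pseudocount of 0.1, no filter and one of 5 FPKM, both scalings, a replicate block, the V-Mt libraries alone, and leaving out each of the 12 libraries.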

Additional observations from a re-analysis of the deposited data

Results flagged for a closer look

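The V-Mt and WT differences were compared by the interaction test, which flagged 1416 genes as higher and 11935 as lower in V-Mt than in WT. Of the named genes that turned round to higher, the interaction was 8.29 for AT1G11770 (an FAD-binding berberine family gene), 7.75 for AT1G21695 (a hydroxyproline-rich glycoprotein), 7.71 for SEC14 (a phosphatidylinositol transfer protein), 7.61 for PPDK (pyruvate orthophosphate dikinase) and 7.54 for the kinase gene AT1G74320. SEC14 held 70.9, 63.6 and 46.6 FPKM in V-Mt VC, 831, 1039 and 128 in V-Mt SC, 8462, 11361 and 11474 in WT VC and 233, 246 and 1039 in WT SC, so the third library stands apart within both SC groups. The V-Mt rise of AT1G11770 did not pass without V-Mt SC replicate 1 or 2 or without V-Mt VC replicate 3. Of those that turned round to lower, it was -12.29 for AT1G67430, -12.08 for FKBP53, -11.83 for UAP56b (an RNA helicase of mRNA export), -11.53 for the ribosomal gene AT5G61170 and -11.41 for RPS15. UAP56b held 1136, 1184 and 1218 FPKM in V-Mt VC, 17.8, 3.64 and 2.54 in V-Mt SC, 0, 0.6 and 0.75 in WT VC and 54, 34.8 and 12 in WT SC. The part of the different GFP markers and of nuclei yield in these differences was not tested.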

How the results depend on the processing

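Of 168 named genes that passed in V-Mt, 144 kept their direction and passed under each alternative that tested them. Under quantile normalization 4 turned sign (WEE1 0.33, PCNA2 0.36, HST 0.03 and ELF4 0.02) and 16 no longer passed. Quantile normalization also gave 4802 genes higher and 5947 lower in V-Mt, 4514 lower in WT, 4338 higher and 4656 lower interactions, 838 turned round to higher and 529 to lower, 500 lost higher and 1680 lost lower, and 864 gained higher and 3071 gained lower. Median-ratio scaling gave 3966 lower in WT, 2670 higher interactions, 524 turned round to higher, 1129 lost lower and 348 gained higher. The cause of these shifts was not tested. The filter of 5 FPKM left 4770 gained lower, since it tests fewer genes. Leaving out 1 library gave 2323 to 2949 higher and 7263 to 11736 lower in V-Mt, 4484 to 5865 higher and 2036 to 2831 lower in WT, and 1160 to 1711 higher and 7824 to 12103 lower interactions. The classes ranged over 1776 to 2099 kept higher, 1112 to 1466 kept lower, 221 to 417 turned round to higher, 1170 to 2293 to lower, 1168 to 1519 lost higher, 460 to 680 lost lower, 163 to 249 gained higher and 4020 to 7816 gained lower. The low counts of V-Mt lower (7263, 7287 and 7380), of lower interactions (7824, 7828 and 7894) and of gained lower (4020, 4034 and 4062) came without V-Mt VC replicate 1, 2 or 3, when 16227 to 16245 genes pass the filter. Whether the replicate numbers pair the samples was not settled. Deviations of V-Mt SC and VC libraries of the same number correlated at 0.0487, 0.0334 and 0.102, and those of different numbers at -0.0732 to 0.0341. With the number as a replicate block 2587 genes were higher and 11330 lower in V-Mt, and PRK3, AHA9 and AT5G15950 no longer passed. Without counts, no counting interval can be given for a low FPKM value.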
